A study of Mus musculus with 15 samples.

Results

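Hearts taken after 72 h of doxycycline-induced CELF2 expression were compared here with hearts taken after 24 h, 3 mice at each time. The comparison covers the 10459 of 16199 genes in the deposited table whose mean over these 6 hearts reached 1 RPKM, a read count divided by the length of the gene's constitutive coding sequence and by the number of usable reads in the library. Both groups were adult FVB mice of 14 to 16 weeks that carried MHCrtTA, in which the alpha myosin heavy chain promoter drives the tetracycline-responsive transactivator in cardiomyocytes, together with TRECUGBP2, a human CELF2 transgene under a Tet-responsive promoter. Both were fed 2 g/kg doxycycline, so that the time on the drug and the time of CELF2 expression cannot be told apart in this comparison. The series also holds hearts taken at 12 h and 7 d, and control hearts with MHCrtTA alone fed doxycycline for 72 h, again 3 of each. These 9 hearts entered the estimate of the spread and are given below for reference. The RNA was from whole ventricle, in which fewer cells of a type and less RNA per cell cannot be told apart.

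CELF2 belongs to the CELF family of RNA-binding proteins, which bind GU-rich sequence in introns and 3′ untranslated regions and act on alternative splicing and on the stability of mRNA. Muscleblind proteins act on many of the same messages in the opposite direction. In the heart the balance of the families shifts around birth, as CELF levels fall and Muscleblind levels rise, and raising CELF activity in adult muscle brings back fetal splicing patterns, as occurs in myotonic dystrophy.

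Celf2 mRNA checked the labels. It was at 261, 217 and 213 RPKM in the 72 h hearts, against 173, 165 and 112 RPKM in the 24 h hearts, so all 72 h hearts lay above all 24 h hearts. The means were 23.5-fold over control at 72 h and 15.3-fold over control at 24 h. The ratio of the 72 h mean to the 24 h mean was 1.54, with an exact two-sided permutation p of 0.1, the smallest that 3 hearts against 3 allow. In the fit across all genes the log2 difference was 0.64 ± 0.26 (SE) with an adjusted p of 0.362, so the further accumulation of Celf2 mRNA between the groups did not pass the test. How many reads of the human transgene were counted for the mouse gene was not tested. The related genes did not pass either. Celf1 was at 10.5, 10.01 and 6.27 RPKM in 72 h hearts, against 13.7, 12.4 and 11.03 RPKM in 24 h hearts (log2 difference -0.48, adjusted p = 0.426). The log2 difference was 0.22 for Mbnl1 (adjusted p = 0.875) and -0.00 for Mbnl2 (adjusted p = 0.999).

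Some properties of the libraries bear on every value below. Depth is unknown, since the values carry no read totals, and 1463 to 1977 genes were listed at 0 in the 72 h hearts, against 1725 to 1892 in the 24 h hearts. Each title carries 1 of 3 numbers, here called title codes A, B and C, whose meaning the sources used here do not give. By these 72 h hearts 1 and 2 and 24 h heart 1 share code A, 24 h hearts 2 and 3 have code B, and 72 h heart 3 has code C. The first principal component (52.9% of the variance) separated code A from the others, and the second (23.8%) separated the 72 h hearts from the 24 h hearts. Code A alone holds both groups, and its 24 h heart differed from the other 5 hearts in that it lacked Y-linked mRNA (Ddx3y at 0 RPKM, against 18.0 to 30.1 RPKM), so that within code A time and Y-linked mRNA cannot be told apart. Cardiomyocyte markers summed to 42051 to 43608 RPKM at 72 h and 42294 to 45428 RPKM at 24 h, and none of the 8 was called. Atrial cardiomyocyte markers, of which 4 of 5 were tested and 0 called, summed to 57.5 to 150 RPKM at 72 h and 98.0 to 226 RPKM at 24 h. All 4 had a negative log2 difference, with a median of -0.64, or -0.10 with the title code as a covariate, and Bmp10 was at or near 0 in all 6 of these hearts. Nppa, the atrial natriuretic peptide precursor, had 33.8, 28.2 and 53.6 RPKM at 72 h and 39.6, 108 and 61.7 RPKM at 24 h (log2 difference -0.78, adjusted p = 0.735), and these groups overlap. Myl7, the atrial regulatory myosin light chain, had 15.3, 7.57 and 23.7 RPKM at 72 h and 17.7, 44.7 and 29.7 RPKM at 24 h, with an adjusted p of 0.709, and its groups overlap as well. The part of residual atrium in the results was not tested.

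**Figure D1:**
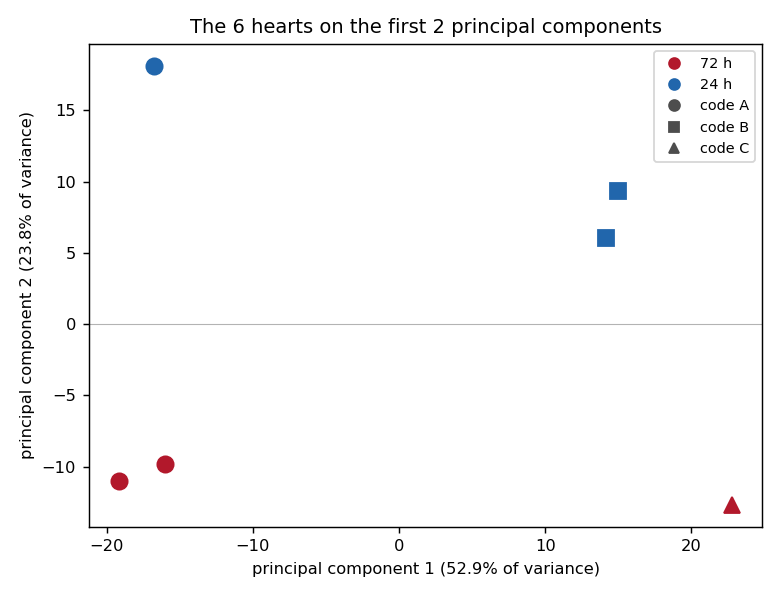
The 6 hearts on the first 2 principal components of log2(RPKM + 0.5), in units of component score, coloured by time with 72 h in red and 24 h in blue, and shaped by title code. Code A lies at negative values of component 1, and the 72 h hearts lie at negative and the 24 h hearts at positive values of component 2.

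To ask which messages differed between the times, a linear model (limma) was fitted to log2(RPKM + 0.5), and a gene was called where its p, adjusted over all 10459 genes by the Benjamini-Hochberg method, was under 0.05. Differences are given as 72 h minus 24 h on this scale, which understates the change of genes near 1 RPKM. Of the genes tested 66 were called (0.631%). At 72 h, 32 genes were higher (0.306%) and 34 were lower (0.325%). At an unadjusted p under 0.05 there were 662 higher (6.33%) and 481 lower (4.6%). Most differences were small, with 3 of the 32 and 8 of the 34 reaching 2-fold. The median log2 difference was 0.60 among genes called higher and -0.79 among genes called lower, and the 3 hearts of each time did not overlap for any of the 66. The same separation was seen in 9.61% of all tested genes towards higher and 5.13% towards lower. Within code A the median was 0.58 for the higher genes and -0.91 for the lower genes. The direction of the 66 genes there was fixed in advance, because their hearts did not overlap between the times. The counts depended on single hearts. Without 72 h heart 1, 0 higher and 1 lower gene were called (558 and 281 at an unadjusted p under 0.05), without 72 h heart 2 they were 5 and 4, and without 72 h heart 3 they were 38 and 99. Without 24 h hearts 1, 2 and 3 in turn, the higher genes numbered 11, 7 and 6, and the lower genes 13, 8 and 7. Leaving out 7 d heart 2 gave 11 and 17, and leaving out control heart 2 gave 19 and 25. With median-ratio scaling between hearts 36 genes were higher and 64 lower, among them 26 of the 32 and all 34. Calm3, Hacd1, Mrpl16, Ppfibp2, Rhoc and Tab2 were not called with it. With upper-quartile scaling 36 genes were higher and 71 lower. With the title code as a covariate 165 genes were higher (1.58%) and 139 lower (1.33%), among them 31 of the 32 and all 34. When the level of Y-linked mRNA was added to the model in place of the title code, 14 of the 32 and 21 of the 34 remained called, and the genes that did not included Acer2, Fam107a, Flt1, Nfil3, Hspa8 and Eif3m. With the title code and Y-linked mRNA together 2 higher and 3 lower genes were called, 1 of the 32 and 1 of the 34 among them.

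**Figure D2:**
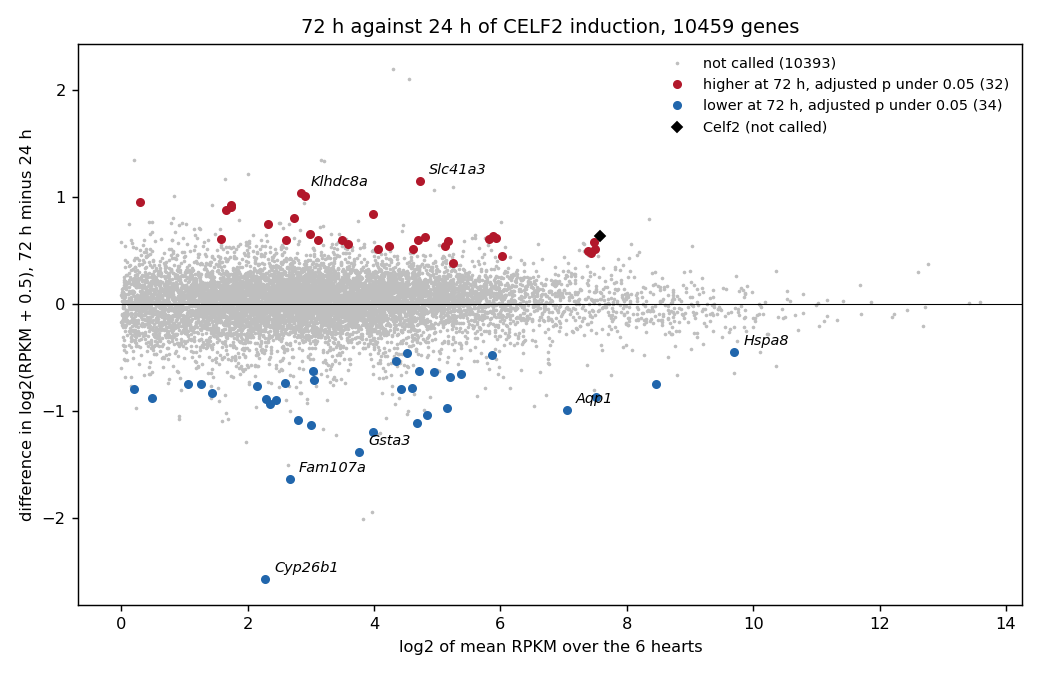
Difference in log2(RPKM + 0.5), 72 h minus 24 h, against log2 of the mean RPKM over the 6 hearts, 1 point per gene. The 32 genes called higher (red) and 34 called lower (blue) are spread over the range of levels, and Cyp26b1 lies lowest at -2.57.

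Cyp26b1, a cytochrome P450 that inactivates retinoic acid, had the largest decrease of the called genes. It was at 0.67, 1.67 and 0.89 RPKM in the 72 h hearts, against 7.39, 9.73 and 8.67 RPKM in the 24 h hearts (log2 difference -2.57 ± 0.37, adjusted p = 0.0110). The control hearts were at 0.62 to 1.69 RPKM and the 12 h hearts at 1.38 to 3.83 RPKM, so the 24 h hearts stood apart from every other heart of the series. The gene lies on chromosome 6 (mm9, 84521938 to 84543740, minus strand). Retsat, the retinol saturase, also fell, with a log2 difference of -0.63 (adjusted p = 0.0211). Its 3 hearts at 72 h were at 21.7 to 27.7 RPKM and its 3 hearts at 24 h at 33.5 to 42.7 RPKM.

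Several of the lower genes encode enzymes of detoxification and oxidation. Gsta3, an alpha class glutathione transferase, had the smallest adjusted p of the comparison (9.98e-04). It was at 7.04, 7.17 and 7.73 RPKM at 72 h, against 22.4, 17.6 and 19.8 RPKM at 24 h, a log2 difference of -1.38 ± 0.14, and it was called with any 1 of the 6 hearts left out. The groups were far apart for this gene, with controls between them at 9.57 to 11.8 RPKM. Fmo2, a flavin-containing monooxygenase, was at 9.86, 7.26 and 11.2 RPKM at 72 h and 19.4, 25.6 and 21.1 RPKM at 24 h (log2 difference -1.19, adjusted p = 0.0147). Fmo1 of the same family had a smaller decrease of -0.62. Xdh, the enzyme that oxidizes hypoxanthine and xanthine to uric acid, was at 18.1, 15.4 and 22.7 RPKM at 72 h, against 42.2, 40.5 and 32.7 RPKM at 24 h (log2 difference -1.03, adjusted p = 0.0110). For these enzymes the lowest 24 h heart exceeded the highest 72 h heart. Pnp, purine nucleoside phosphorylase, fell by 0.79 on the log2 scale, and Slc43a3, a transporter of purine nucleobases, by 0.97. Of the 33 tested genes of glutathione metabolism and detoxification, Gsta3 alone was called, beside 0.325% of all tested genes called lower. The list had a median of -0.04. Its next member Gstt1 had a log2 difference of -0.70 with an adjusted p of 0.0579.

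Other large decreases were seen in genes of varied function. Fam107a, an actin-associated protein, was at 2.08, 1.78 and 4.90 RPKM at 72 h and 8.79, 13.9 and 6.59 RPKM at 24 h (log2 difference -1.63, adjusted p = 0.0478). Rhobtb1, a BTB domain protein, was at 14.2, 11.6 and 23.4 RPKM at 72 h and 28.6, 43.0 and 33.3 RPKM at 24 h (log2 difference -1.11). Heart 3, with code C, was the highest of the 72 h hearts for both genes, and both overlapped the controls at either time. Acer2, an alkaline ceramidase of the Golgi, fell by 1.08 on the log2 scale (adjusted p = 0.0295). Amy1, an amylase, fell by 1.13, but its annotated exons overlap those of Rnpc3 on the same strand. Reads of Amy1 that also match its paralogs were not used. Zfp366, a zinc finger corepressor, fell by 0.90.

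Transcripts known from vessels were also among the lower genes. Aqp1, the water channel of capillary endothelium and red cells, was at 83.4, 66.4 and 118 RPKM at 72 h and 137, 199 and 191 RPKM at 24 h (log2 difference -0.99, adjusted p = 0.0405). Lyve1, a hyaluronan receptor of lymphatic endothelium, was at 2.76, 3.39 and 3.89 RPKM at 72 h and 7.51, 6.34 and 6.62 RPKM at 24 h (log2 difference -0.94, adjusted p = 0.0110). Lyve1 was called in 5 of the 6 fits that left out a 72 h or 24 h heart and Aqp1 in 2. Flt1, a receptor for VEGF, fell by 0.53. It was the 1 called of the 8 endothelial markers, beside 0.325% of all tested genes called lower. Kdr, the other main VEGF receptor of endothelium, had a log2 difference of 0.36 (adjusted p = 0.204), and Pecam1 one of -0.11. The 8 endothelial markers summed to 213 to 236 RPKM at 72 h and 222 to 250 RPKM at 24 h. None of the 7 smooth muscle and pericyte markers was called. They had a median log2 difference of -0.51, which was -0.11 with the title code as a covariate. Erythroid markers, of which 3 of 4 were in the table, 2 were tested and 0 called, summed to 424 to 770 RPKM at 72 h and 623 to 1308 RPKM at 24 h. The part of these cells in the lower genes was not tested. Mgp, the matrix Gla protein that inhibits calcification, was chosen after its values were seen because it is the most abundant of the lower genes after Hspa8. It was at 277, 227 and 291 RPKM at 72 h and 469, 441 and 415 RPKM at 24 h, a log2 difference of -0.74.

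The remaining lower genes were named because they were called, after their values were seen. Ly6c1, a surface protein of endothelium and monocytes, was at 115, 121 and 151 RPKM at 72 h and 221, 235 and 247 RPKM at 24 h (log2 difference -0.87, adjusted p = 0.0147). Reads of Ly6c1 that also match its close paralogs were not used, so its values may miss some. Il33, an alarm cytokine of the interleukin-1 family, was at 2.10, 1.43 and 1.90 RPKM at 72 h and 4.38, 3.19 and 3.28 RPKM at 24 h (log2 difference -0.83). Ctla4, an inhibitory receptor of T cells, was at 0.66 to 1.09 RPKM at 72 h and 1.55 to 2.37 RPKM at 24 h, while the 5 of 6 lymphocyte markers in the table summed to 0.87 to 1.01 RPKM at 72 h and 0.80 to 1.44 RPKM at 24 h, with 0 of them at the level tested. Ces1d, a carboxylesterase that hydrolyses lipid esters, was at 25.5 to 30 RPKM at 72 h and 40.0 to 49.9 RPKM at 24 h (log2 difference -0.68). Acot7, an acyl-CoA thioesterase, was at 28.5 to 34.3 RPKM at 72 h and 42.0 to 60.6 RPKM at 24 h. Xpo6 was at 5.99 to 6.47 RPKM at 72 h and 9.86 to 11.3 RPKM at 24 h (log2 difference -0.71), and Rab21 was at 15.6 to 19.9 RPKM at 72 h and 27.2 to 33.4 RPKM at 24 h. Banp, Zfand4, Rasgef1b, Pkd2l2, Ceacam1 and Nsmce1 complete the list, with log2 differences of -0.89, -0.79, -0.75, -0.75, -0.63 and -0.46.

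**Figure D3:**
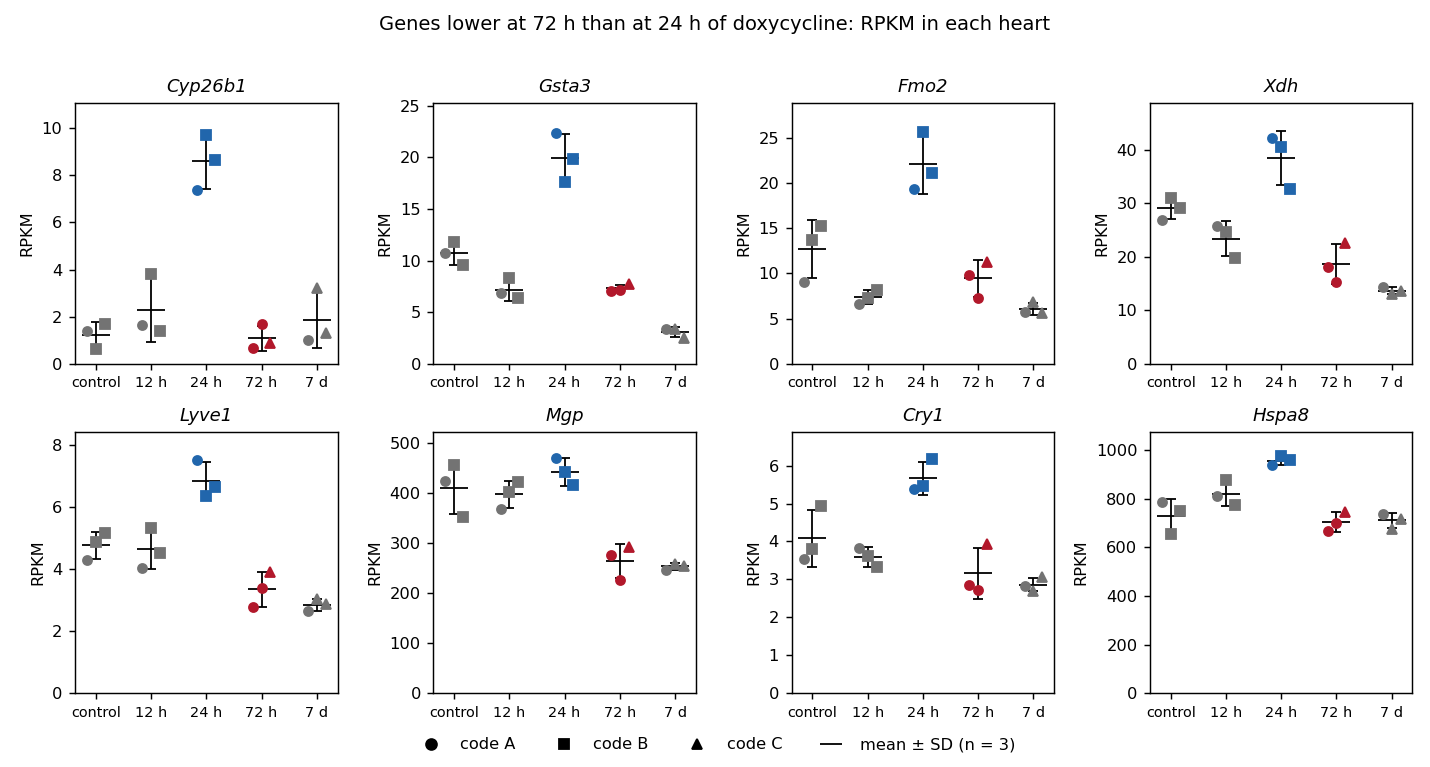
RPKM per heart of 8 genes lower at 72 h (red) than at 24 h (blue), with control, 12 h and 7 d hearts in grey, symbols for title code, and bars for mean ± SD of 3 hearts. For Cyp26b1, Gsta3, Fmo2, Xdh, Lyve1, Cry1 and Hspa8 the 24 h hearts lie above all control hearts, and for Mgp they overlap the controls and the 72 h hearts lie below them.

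Among the higher genes, Slc41a3, a magnesium transporter, had the largest difference. It was at 37.5, 28.4 and 45.3 RPKM in the 72 h hearts, against 16.4, 16.2 and 15.7 RPKM in the 24 h hearts (log2 difference 1.15 ± 0.17, adjusted p = 0.0110). Control hearts were at 25.6 to 30.8 RPKM, so the 72 h hearts overlapped the controls and the 24 h hearts lay below them. Klhdc8a, a kelch domain protein, was at 9.16, 9.99 and 10.3 RPKM at 72 h and 3.42, 5.34 and 5.04 RPKM at 24 h (log2 difference 1.04). Rcor2, a corepressor that acts with a histone demethylase, was at 9.88, 10.01 and 10.6 RPKM at 72 h and 3.64, 5.33 and 5.59 RPKM at 24 h (log2 difference 1.01). These were the 3 higher genes that reached 2-fold. Jpt2, a microtubule-associated protein that also binds the calcium messenger NAADP, was at 4.0 to 5.21 RPKM at 72 h and 2.04 to 2.31 RPKM at 24 h (log2 difference 0.93, adjusted p = 0.0110). Jpt2, Slc41a3 and Hnrnpdl were called in at least 5 of the 6 fits that left out a 72 h or 24 h heart.

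Other higher genes are known from muscle. Ky, a peptidase of the muscle cytoskeleton, was at 4.01, 3.89 and 4.76 RPKM at 72 h and 1.59, 2.19 and 2.49 RPKM at 24 h (log2 difference 0.88, adjusted p = 0.0164). Colq, the collagen tail that anchors acetylcholinesterase, rose by 0.91, although its annotated exons overlap Hacl1 on the same strand. Trim63, the ubiquitin ligase MuRF1 that marks sarcomeric proteins for degradation, was at 212, 208 and 215 RPKM at 72 h and 117, 175 and 139 RPKM at 24 h (log2 difference 0.58, adjusted p = 0.0451). It was the 1 gene called of 21 in the list of muscle atrophy ligases, beside 0.306% of all tested genes called higher. At an unadjusted p under 0.05, 1 of the 21 was higher and 3 were lower, beside 6.33% and 4.6% of all tested genes. Asb14 of that list had a log2 difference of -0.51 with an adjusted p of 0.0568. Hadh, which catalyses a step of fatty acid beta-oxidation, was at 187, 197 and 202 RPKM at 72 h and 123, 155 and 138 RPKM at 24 h (log2 difference 0.49, adjusted p = 0.0322). It alone was called among 35 tested genes of fatty acid oxidation and PPAR alpha targets, beside 0.306% of all tested genes called higher. Ccdc63, a coiled-coil protein known in mouse from the sperm flagellum, rose by 0.95, but its exons overlap those of Myl2 on the opposite strand. Myl2 is among the most abundant messages of ventricle, and whether the counting used strand is not stated.

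Ccnd1, cyclin D1 of the G1 phase, was at 17.3, 22.3 and 21.6 RPKM at 72 h, against 8.89, 11.5 and 13.4 RPKM at 24 h (log2 difference 0.84, adjusted p = 0.0414). Controls lay at 16.4 to 21.5 RPKM and 12 h hearts at 9.18 to 10.4 RPKM, so the low values were those at 12 h and 24 h. It was not called in any of the 6 fits that left out a 72 h or 24 h heart, and its exons overlap Oraov1. Of 18 tested genes of the cell cycle and DNA replication it alone was called, beside 0.306% of all tested genes called higher. The replicative helicase subunits Mcm6, Mcm2 and Mcm5 had log2 differences of 0.81, 0.52 and 0.46, with adjusted p of 0.143, 0.201 and 0.390. The cyclin-dependent kinase inhibitors Cdkn1a and Cdkn1c, picked with the values known, had log2 differences of -0.83 and -0.48 (adjusted p = 0.573 and 0.457). At an unadjusted p under 0.05, 5 of the 18 were higher and 1 was lower, beside 6.33% and 4.6% of all tested genes. The list median was 0.08, with 12 of 18 members positive. Zfp346, a zinc finger protein that binds double-stranded RNA, rose by 0.80, Asap3, an Arf GTPase-activating protein, by 0.75, Ttc5 by 0.65, and Tmx2, a thioredoxin-related membrane protein, by 0.64. Hagh, the glyoxalase that hydrolyses lactoylglutathione, was chosen after its values were seen and rose by 0.61, with 58.1 to 74.0 RPKM at 72 h, 43.6 to 45.9 RPKM at 24 h and 102 to 113 RPKM at 7 d.

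The remaining higher genes, named after their values were seen, included several of signalling. Prkar1a, a regulatory subunit of protein kinase A, was at 194, 205 and 240 RPKM at 72 h and 149, 158 and 139 RPKM at 24 h (log2 difference 0.51, adjusted p = 0.0306). Calm3, which encodes calmodulin, was at 198, 203 and 203 RPKM at 72 h and 154, 162 and 120 RPKM at 24 h (log2 difference 0.48), and was the 1 higher gene not called with the title code as a covariate. Fgf1, a fibroblast growth factor, was at 6.54, 7.96 and 7.77 RPKM at 72 h and 4.77, 5.21 and 4.21 RPKM at 24 h (log2 difference 0.60). Neither time overlapped the other for these genes, but the differences were under 2-fold. Rhoc, a small GTPase, and Pls3, an actin-bundling plastin, rose by 0.62 and 0.60. Mapk6, an atypical MAP kinase, rose by 0.60 and Tab2, an adaptor of the kinase TAK1, by 0.52. Itsn1, a scaffold of endocytosis, rose by 0.57, Pea15a, a death effector domain phosphoprotein, by 0.45, and Hacd1, a dehydratase of fatty acid elongation known from muscle, by 0.63. Pdzd3, Ppfibp2, Lrrfip1 and Lsm12 had log2 differences of 0.61, 0.60, 0.54 and 0.52. Exons of Tmx2, Zfp346 and Ppfibp2 overlap those of neighbouring genes in the annotation, so their values are less certain. The same holds for Celf2, Mbnl2, Nppa, Rhobtb1, Pkd2l2, Eif3m, Dnaja1 and Nr1d1, which are named in other paragraphs.

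**Figure D4:**
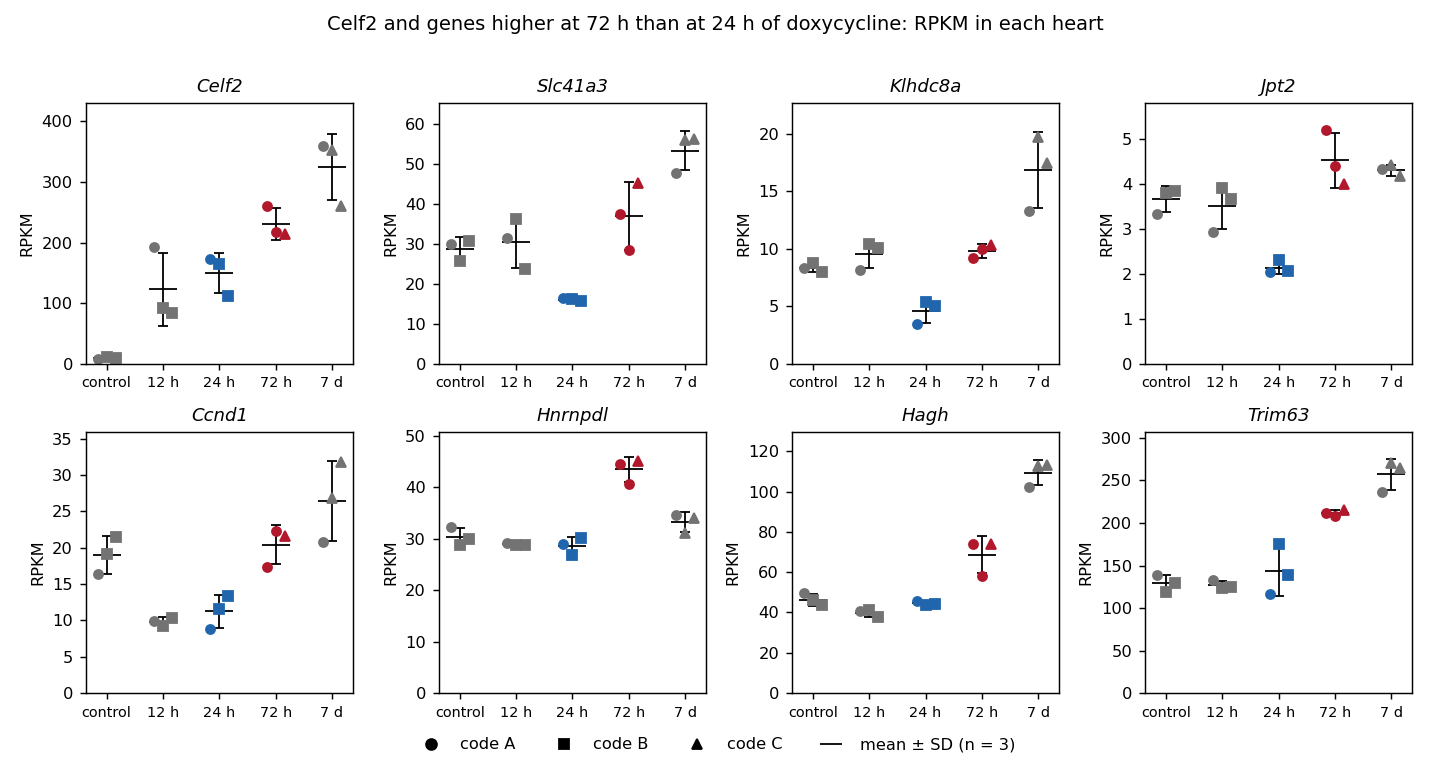
RPKM per heart of Celf2 and 7 genes higher at 72 h (red) than at 24 h (blue), with the other groups in grey, symbols for title code, and bars for mean ± SD of 3 hearts. Slc41a3, Klhdc8a, Jpt2 and Ccnd1 lie below the controls at 24 h, and Klhdc8a, Jpt2, Hnrnpdl, Hagh and Trim63 lie above the controls at 72 h. Celf2 did not pass the test.

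Comparison with the 3 control hearts showed where the called genes stood at each time, as a description, since the calls rest on the same 72 h and 24 h hearts. Y-linked mRNA was present in 3 of 3 hearts at 72 h and at 7 d, in 2 of 3 at 24 h, in 0 of 3 at 12 h and in 1 of 3 control hearts, so positions against control, 12 h and 7 d hearts differ in it as well, and its part in them was not tested. Of the 34 lower genes, 20 had all 72 h hearts below all control hearts, a position held by 10.6% of tested genes, and 14 overlapped the controls. At 24 h, 21 of the 34 were above the controls (2.79% of tested genes), 11 overlapped and 2 were below. In 12 genes the 72 h hearts overlapped the controls and the 24 h hearts were above them, among them Cyp26b1, Fmo2, Aqp1, Cry1 and Hspa8. In 9 genes the 72 h hearts were below and the 24 h hearts above, among them Gsta3, Xdh and Lyve1. Rab21, a GTPase of endosomes, and Xpo6, which exports actin from the nucleus, were below the controls at both times. Of the 32 higher genes, 25 were above the controls at 72 h (7.43% of tested genes) and 18 were below them at 24 h (14.4%). In 11 genes both held, among them Colq, Jpt2, Klhdc8a, Ky and Rcor2. At 7 d, 27 of the 32 were above the controls (18.3% of tested genes). By 7 d the mean of 24 of the 32 higher genes was above the 72 h mean and that of 25 of the 34 lower genes was below it. The same shares over all tested genes were not counted, so no trend is read from these. The median RPKM of tested genes was 8.72 to 9.72 in the 7 d hearts and 8.13 to 9.32 in the 72 h hearts. Eif3m, a translation initiation factor subunit, was at 47.2 to 50.3 RPKM at 72 h and 63.1 to 73.2 RPKM at 24 h. It had reached 25.5 to 27.6 RPKM at 7 d. Of 52 tested translation initiation factors it alone was called, beside 0.325% of all tested genes called lower.

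Of the 25 tested heat shock proteins and co-chaperones, 18 had a negative difference and 1 was called lower, beside 0.325% of all tested genes. Hspa8, the constitutive Hsp70 chaperone, was at 666, 701 and 746 RPKM at 72 h, against 938, 974 and 959 RPKM at 24 h (log2 difference -0.44 ± 0.09, adjusted p = 0.0315). Controls were at 654 to 787 RPKM, so the 24 h hearts were the high ones. Its exons hold small nucleolar RNA genes on the same strand. Of the 25 members, 9 (36%) had all 72 h hearts below all 24 h hearts, beside 5.13% of all tested genes, and 1 had them above, beside 9.61%, and the list median was -0.15, beside 0.04 over all genes. Hspa1a was at 2.19, 8.68 and 6.16 RPKM at 72 h and 17.8, 16.2 and 34.4 RPKM at 24 h (log2 difference -2.00, adjusted p = 0.153). Hspa1b is nearly identical in sequence, and reads that match both were not used. The values of this pair of inducible Hsp70 genes thus rest on the positions where they differ. The co-chaperones Dnaja1 and Dnajb1 had log2 differences of -0.78 and -0.69 (adjusted p = 0.112 and 0.0995), and Hsph1, a nucleotide exchange factor for Hsp70, one of -0.47 (adjusted p = 0.0735). Unlike Hspa8, Dnajb1 and Hsph1 overlapped the controls at 24 h and lay below them at 72 h. Dnaja1 overlapped the controls at both times. With the title code as a covariate 3 members were lower and 1 was higher, beside 1.33% and 1.58% of all tested genes.

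Heat shock genes are activated through heat shock elements, arrays of the pentamer NGAAN in alternating orientation, and the core GAANNTTC, which reads the same on both strands, was searched in the windows of RefSeq promoters (GRCm38.p6, 250 bases before to 50 after each start). It was present in 12 of the 20 tested heat shock genes with an entry, and in 9.04% of all genes with an entry. Hspa8, the member called, had no entry and was not searched. Examples are printed, with the core in capitals, from 3 members whose 72 h hearts all lay below their 24 h hearts. A match is a description of the window only.
Dnaja1, chr4:40722333-40722362, plus strand: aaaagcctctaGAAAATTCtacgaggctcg
Hsph1, chr5:149636277-149636306, minus strand: tgcagattctgGAAAGTTCtcctcagtagg
Chordc1, chr9:18292257-18292286, plus strand: caaccgGAACGTTCggGAAAATTCctgaag
The stretch of Chordc1, an Hsp90-binding protein with a log2 difference of -0.48 (adjusted p = 0.152), holds 2 cores spaced by 2 bases.

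Of 18 glucocorticoid-induced genes 0 were called by limma, with 9 lower and 0 higher at an unadjusted p under 0.05. Of all tested genes 4.6% were lower and 6.33% higher at that p. The list median was -0.45, and 17 of 18 members had a negative difference, beside 4438 of 10459 genes overall. The median stayed between -0.69 and -0.31 when any 1 of the 6 hearts was left out. Zbtb16, a zinc finger repressor, was at 8.77, 6.05 and 17.9 RPKM at 72 h and 23.8, 23.3 and 22.96 RPKM at 24 h (log2 difference -1.20, adjusted p = 0.0663). Fkbp5, the immunophilin that restrains the glucocorticoid receptor, was at 3.97, 1.88 and 7.38 RPKM at 72 h and 8.16, 9.55 and 7.23 RPKM at 24 h (log2 difference -1.0, adjusted p = 0.174). For both the code C heart was the highest at 72 h, and for Fkbp5 it overlapped the 24 h hearts. With the title code as a covariate 2 members of the list were lower, beside 1.33% of all tested genes.

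Of 20 tested genes of the circadian clock 2 were called, both lower, beside 0.325% of all tested genes called lower. Cry1, a repressor of the CLOCK and BMAL1 activators, was at 2.84, 2.72 and 3.94 RPKM at 72 h and 5.37, 5.46 and 6.17 RPKM at 24 h (log2 difference -0.76, adjusted p = 0.0295). Nfil3, a repressor of D-box genes, was at 3.67, 4.95 and 4.52 RPKM at 72 h and 9.38, 7.47 and 6.19 RPKM at 24 h (log2 difference -0.74, adjusted p = 0.0451). The groups did not overlap for either, and Nfil3 was not called in any of the 6 fits that left out a 72 h or 24 h heart. Nr1d1, the repressor REV-ERB alpha, was at 47.9, 42.0 and 63.5 RPKM at 72 h and 13.3, 28.8 and 32.8 RPKM at 24 h (log2 difference 1.10, adjusted p = 0.137, and 0.00862 with the title code as a covariate). Per2 had a log2 difference of -0.88 (adjusted p = 0.0900) and Dbp one of 0.77 (adjusted p = 0.441, and 0.0245 with the title code). With Y-linked mRNA as the covariate in place of the title code, 0 clock genes were called higher and 1 lower. The hour of the day at which hearts were taken is not known here. The E-box CACGTG, through which CLOCK and BMAL1 act and which also reads the same on both strands, was in the RefSeq window of 5 of the 16 tested clock genes with an entry and of 8.09% of all genes. That of Cry1 is shown because Cry1 was called, with the E-box in capitals.
Cry1, chr10:85185097-85185126, minus strand of GRCm38.p6: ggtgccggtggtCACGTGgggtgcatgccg

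**Figure D5:**
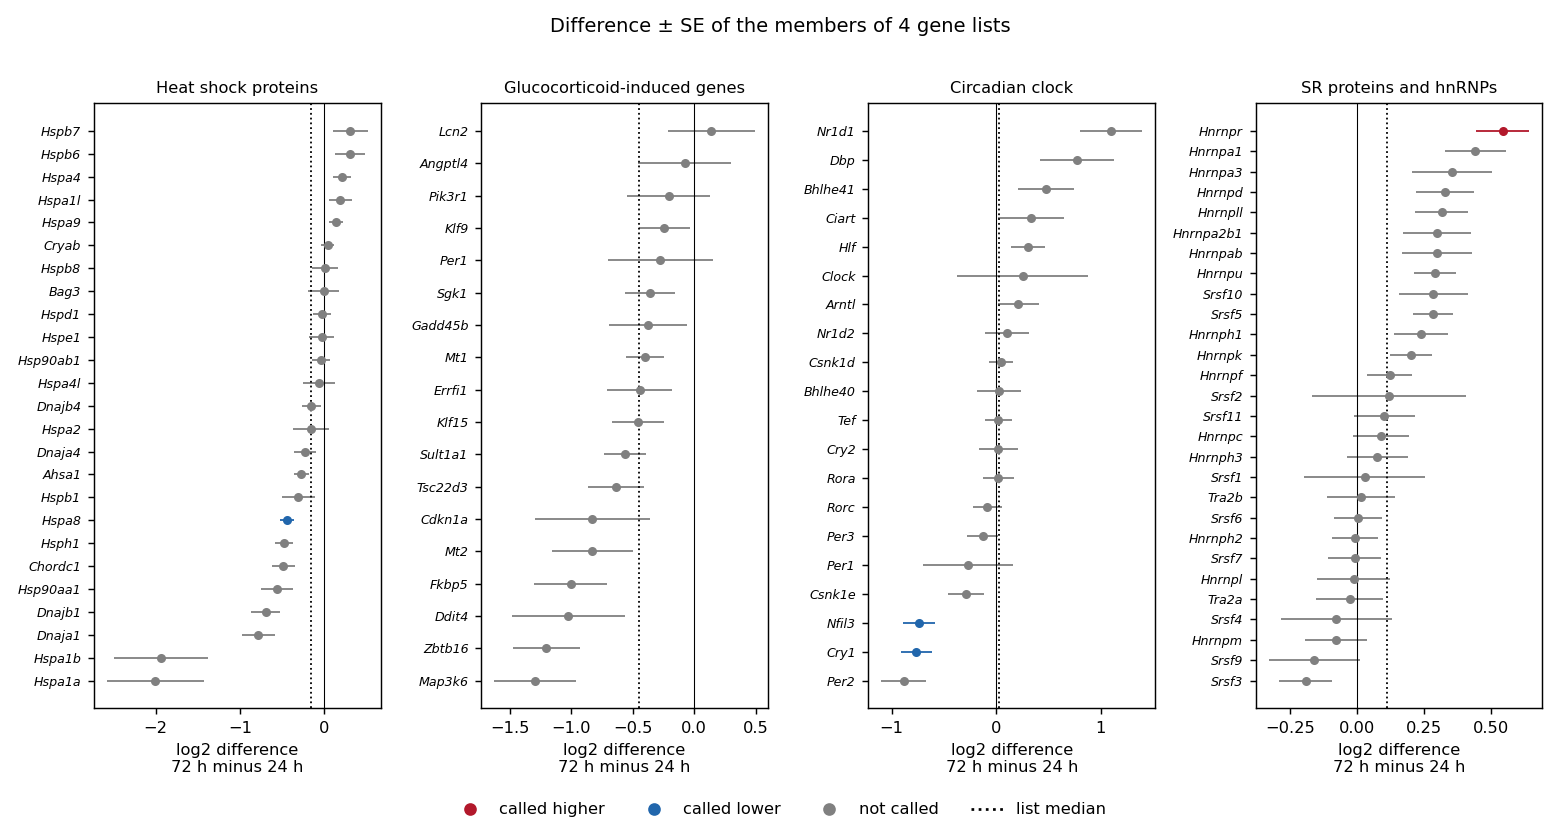
Log2 difference ± SE, 72 h minus 24 h, of each tested member of 4 lists, with called members coloured and the list median dotted. Hspa8, Cry1 and Nfil3 were called lower and Hnrnpr higher, and the medians are -0.15 for heat shock proteins, -0.45 for glucocorticoid-induced genes, 0.03 for clock genes and 0.11 for SR proteins and hnRNPs.

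SR proteins and hnRNPs, which bind nascent RNA and act on splice site choice, were positive in 20 of 28 tested members. Of the 28, 1 was called higher, beside 0.306% of all tested genes. All 72 h hearts lay above all 24 h hearts in 10 (35.7%), beside 9.61% of all tested genes, and below in 0, beside 5.13%. The median was 0.11, beside 0.04 over all genes, of which 57.6% were positive. Hnrnpr was at 21.4, 23.6 and 22.6 RPKM at 72 h and 15.7, 15.6 and 14.6 RPKM at 24 h (log2 difference 0.55, adjusted p = 0.0282). Hnrnpa1, a splicing repressor, was at 148, 163 and 135 RPKM at 72 h and 110, 121 and 97.9 RPKM at 24 h (log2 difference 0.44, adjusted p = 0.114). Hnrnpdl, related to the AU-rich element binding protein hnRNP D and not on the list, was noted after its values were seen. It was at 44.6, 40.8 and 45.2 RPKM at 72 h and 28.9, 26.9 and 30.2 RPKM at 24 h (log2 difference 0.59 ± 0.09, adjusted p = 0.0110), with controls at 28.9 to 32.3 RPKM. Of 29 mRNA decay factors 0 were called (1 higher and 1 lower at an unadjusted p under 0.05), and of 13 muscle and neural splicing regulators 0 (0 and 1). Of all tested genes 6.33% were higher and 4.6% lower at that p.

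Other lists held few or no called genes. Their unadjusted counts stand beside 6.33% of all tested genes higher and 4.6% lower. Mrpl16 was the 1 gene called of 75 mitochondrial ribosome proteins, beside 0.306% of all tested genes called higher. It was at 41.6, 45.4 and 42.2 RPKM at 72 h and 33.2, 31.9 and 33.2 RPKM at 24 h (log2 difference 0.39, adjusted p = 0.0333). Mrpl16 was not called with median-ratio scaling. Of the 75, 22 (29.3%) had all 72 h hearts above all 24 h hearts and 0 below, beside 9.61% and 5.13% of all tested genes, with a median of 0.10, beside 0.04. Of 37 proteasome subunits 10 (27.0%, beside the same 9.61%) were separated in this direction and 0 in the other, with 0 called (2 higher and 1 lower unadjusted). The 46 subunits of complexes II to V had a median of -0.09, with 33 of 46 negative and 0 called (1 higher and 7 lower unadjusted). The 21 heart stress genes had a median of 0.04 and 0 called (3 higher and 2 lower unadjusted). Acta1, the skeletal actin of the fetal program, was at 403, 345 and 482 RPKM at 72 h and 154, 301 and 274 RPKM at 24 h (log2 difference 0.80, adjusted p = 0.251, and 0.0150 with the title code). Nppb, the B-type natriuretic peptide, was at 103, 149 and 93.7 RPKM at 72 h and 60.3, 80.3 and 91.8 RPKM at 24 h (log2 difference 0.56, adjusted p = 0.280). For both genes the groups did not overlap, and neither passed the test. With Y-linked mRNA as the covariate in place of the title code, 0 of the 21 heart stress genes were called. Further lists with 0 genes called were 28 interferon-response genes (median 0.06, 0 higher and 0 lower unadjusted), 24 sarcomere proteins (0.01, 2 and 3), 17 calcium cycling genes (0.13, 3 and 0) and 36 collagen and fibrosis genes (0.06, 5 and 5).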

How the data were processed

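Polyadenylated RNA of ventricles from separate mice was sequenced with strand information. The RPKM values were deposited by the authors, who aligned reads to the mm9 genome, counted them over the constitutive coding sequence of each gene, and divided by its length and by the uniquely mapped reads outside ribosomal and mitochondrial sequence. Per the submitters' processing notes Bowtie and TopHat were used. Of 16199 Entrez identifiers, 16146 matched RefSeq (GRCm38.p6, names and promoters alone), and positions and exon overlaps are those of the mm9 annotation. Values carry 2 decimals, 10.8% are 0, and depth is unknown, so precision was judged from the spread between hearts. A Celf1 cassette named in labels of induced hearts, and a series design that speaks of Celf1 in muscle, contradict the stated genotype and tissue and were set aside. Whether counting used strand is not stated.

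limma 3.58.1 (R 4.3.3), with a mean-variance trend, was fitted to log2(RPKM + 0.5) of all 15 hearts in 5 groups, and the contrast 72 h minus 24 h was adjusted over 10459 genes. Tables and figures used Python 3.11.15. On simulated data for this contrast and 10459 genes, 38.8% of genes changed 1.5-fold, 82.1% changed 2-fold and 97.0% changed 4-fold were recovered, with 2.68% false calls. The simulated noise was independent between hearts and held no differences by title code or Y-linked mRNA. These rates may therefore not hold for the real hearts. Named genes are Celf2, Celf1, Mbnl1 and Mbnl2, the 12 largest increases and 12 largest decreases among called genes whose hearts do not overlap, and up to 4 members of each list with the smallest p. Other called genes were chosen after their values were seen. The uncalled genes Hspa1a, Chordc1, Dbp, Cdkn1a, Cdkn1c and Pecam1 fall outside this rule and were also picked with the values known. The genes compared and the lists were chosen with earlier results of these data known. Lists are described by counts and medians without a test. Alternatives were other pseudocounts, filters, scalings, covariates, the 6 hearts alone, no trend, and leaving out each heart. Gene-by-gene library weights and 2 alternatives that combine the title code with median-ratio scaling or with leaving out a heart were added after the data were seen.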

Additional observations from a re-analysis of the deposited data

How the results depend on the processing

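With 3 hearts per group and unknown depth, the number of genes called varied widely between the alternatives. All 66 called genes kept their sign in each alternative in which they were tested. Their hearts did not overlap between the times, so most alternatives could not have reversed a sign. This holds for leaving out a heart, the 6 hearts alone and other pseudocounts. The number of genes called higher (32) was 165 with the title code as a covariate, 16 with Y-linked mRNA, 2 with both, 0 with the 6 hearts alone and 669 with gene-by-gene library weights. The number called lower (34) was 64 with median-ratio, 71 with upper-quartile and 58 with quantile scaling, 139 with the title code, 3 with the title code and Y-linked mRNA, 2 with the 6 hearts alone and 896 with gene-by-gene weights. By limma the 6 hearts alone had 523 genes higher and 392 lower at an unadjusted p under 0.05. Leaving out 1 of the 15 hearts gave 0 to 46 genes higher and 1 to 99 lower. The title code combined with median-ratio scaling gave 192 and 181, and the title code combined with leaving out a heart gave 2 and 2 without 72 h heart 1, 9 and 9 without 72 h heart 2, 98 and 131 without 72 h heart 3, 0 and 0 without 24 h heart 1 (685 and 650 unadjusted), 216 and 135 without 24 h heart 2, and 69 and 94 without 24 h heart 3. The log2 difference of Celf2 was 0.85 and passed the test with gene-by-gene weights. That of Mbnl1 was -0.027 with the title code, -0.13 with the title code and Y-linked mRNA, and -0.027 with the title code and median-ratio scaling. With the title code it was -0.18 without 24 h heart 1, -0.11 without 24 h heart 3, -0.089 without 72 h heart 1 and -0.013 without 72 h heart 3. That of Mbnl2 was 0.036 with gene-by-gene weights, and -0.10 to 0.082 when 1 heart was left out. With the title code it was 0.018 without 24 h heart 1, 0.055 without 24 h heart 2, 0.0060 without 72 h heart 1 and 0.0068 without 72 h heart 2. The cause of these changes was not tested. Library quality weights estimated by restricted maximum likelihood did not converge and were not used. The gene-by-gene weights are also library quality weights, 1 per heart, estimated by another algorithm. No paired analysis was possible because the labels give no replicate numbers that link the groups.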
